A study of Mus musculus with 10 samples.

Results

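The genes described here are 19 mouse genes whose signal was high in marrow progenitors immortalized by HoxA9 together with Meis1 and lower in all the other cultures of the series. A gene was included if 1 of its probe sets read at least 1000 on each of the 3 HoxA9+Meis1 arrays and if the lowest of those 3 readings was at least 2 times the highest reading on the other 7 arrays. Of 18193 genes with a probe set of their own, 20 met both thresholds. Flt3 was set aside, as were Hpgd, H2-Ob, Il7r and Hoxa9, which did not meet the thresholds. Where more than 1 probe set of a gene met both thresholds, the one with the highest mean stood for it. The genes were thus chosen by their signals on the HoxA9+Meis1 arrays against the other 7, and that contrast is given as a description, with no test.

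RNA from 10 cultures was hybridized, 1 culture per array, to Affymetrix mouse genome arrays. All cultures began as primary marrow progenitors, were derived in medium with stem cell factor and without GM-CSF, and differ in the oncogene that immortalized them. The groups are HoxA9+Meis1 (clones 1, 2 and 3), MLL-ENL (1 array), NUP98-NSD1 (clones 1, 2 and 3) and HoxA9 alone (clones 1, 2 and 3). Mouse strain, age, and the vector and promoter that drove each oncogene were not stated in the labels, and the labels do not say whether clones came from separate animals.

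HoxA9 is a homeobox transcription factor of early blood cells, and Meis1 is a homeobox protein that binds DNA in complexes with Hox and Pbx proteins. Co-expression of the pair in mouse marrow is a widely used model of acute myeloid leukaemia. MLL-ENL and NUP98-NSD1 are fusion oncoproteins of acute leukaemia that keep the cell's own Hox-A genes active. The 19 genes were not chosen as members of a pathway. They include transcription and chromatin regulators, surface and adhesion proteins, membrane transporters, enzymes, and 2 long noncoding RNAs.

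Array medians ranged from 440.3 to 660.3 in the deposited intensity units. A Meis1 probe set gave 573, 687 and 558 in HoxA9+Meis1 clones, 10159.6 in MLL-ENL cells, 6267, 5655 and 4214 in NUP98-NSD1 clones and 16.7, 27.9 and 20.6 in HoxA9 clones, and in the other 2 Meis1 probe sets HoxA9+Meis1 clones overlapped HoxA9 clones. Which part of the introduced transcript these probe sets read is not known here. Kit, the receptor for stem cell factor, read 14242 to 29049 on every array with its brighter probe set. The 18 hybridization control probe sets averaged 13.18 to 13.42 on the log2 scale in HoxA9+Meis1 and HoxA9 arrays and 14.01 to 14.13 in MLL-ENL and NUP98-NSD1 arrays. The labels name no batch, and arrays alike in these controls are called a set here. Array set and oncogene therefore cannot be told apart in any comparison of an MLL-ENL or NUP98-NSD1 array with a HoxA9+Meis1 or HoxA9 array, the rule's own contrast included. By these controls, comparisons of HoxA9+Meis1 with HoxA9 clones stay within a set, as do those of MLL-ENL with NUP98-NSD1. Whether the arrays of a set were processed together is not known. In cultures measured in bulk, fewer cells of a type and less RNA per cell cannot be told apart.

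The DNA just upstream of the genes was read for the letters that HoxA9 and Meis1 complexes are known to bind. RefSeq promoter windows (GRCm38.p6) were given for 15 of the 19 genes, 22 windows in all, and the 250 bases before each start site were searched on both strands. The Meis1 core TGACAG, or CTGTCA when read on the opposite strand, was present in 2 of 15 genes (13.3%), Col19a1 and Hes6, against 18.0% of all 27025 genes with a window. The Hox-Pbx letters TGATTTAT, TGATTAAT and TGATTTAC were in 0 of 15, against 0.995%, 0.733% and 0.596% of all genes. These counts describe letters in a short window and say nothing of binding. The 2 windows with a match are shown with the match in capitals, and that of Ddx4, the gene whose 7 other arrays all read below 369, is shown without one. They lie at chr1:24587438-24587687 (Col19a1), chr1:91414039-91414288 (1 of 2 Hes6 windows) and chr13:112652311-112652560 (Ddx4), all on the minus strand, and are written 5′ to 3′ towards the gene.
Col19a1: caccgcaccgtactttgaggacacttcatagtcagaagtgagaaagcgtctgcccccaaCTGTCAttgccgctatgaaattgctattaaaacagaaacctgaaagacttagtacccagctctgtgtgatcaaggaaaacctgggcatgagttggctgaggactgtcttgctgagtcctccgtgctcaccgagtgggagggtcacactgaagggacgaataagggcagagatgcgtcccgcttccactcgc
Hes6: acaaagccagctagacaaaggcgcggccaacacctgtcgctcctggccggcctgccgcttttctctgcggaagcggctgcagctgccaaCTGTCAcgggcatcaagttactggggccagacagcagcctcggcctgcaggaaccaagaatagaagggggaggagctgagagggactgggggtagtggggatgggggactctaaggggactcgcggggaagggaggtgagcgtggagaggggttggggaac
Ddx4: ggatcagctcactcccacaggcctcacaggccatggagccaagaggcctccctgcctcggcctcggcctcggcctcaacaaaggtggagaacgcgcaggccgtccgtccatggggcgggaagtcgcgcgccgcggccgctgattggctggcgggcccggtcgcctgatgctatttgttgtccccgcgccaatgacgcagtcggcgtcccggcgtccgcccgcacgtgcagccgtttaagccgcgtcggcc
The match starts 191 bases before the start site in Col19a1 and 161 bases before it in Hes6, in both on the opposite strand. The Ddx4 window held 31 CpG dinucleotides, against a median of 6 over all windows and 13.5 over the 22 windows of these genes.

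**Figure D1:**
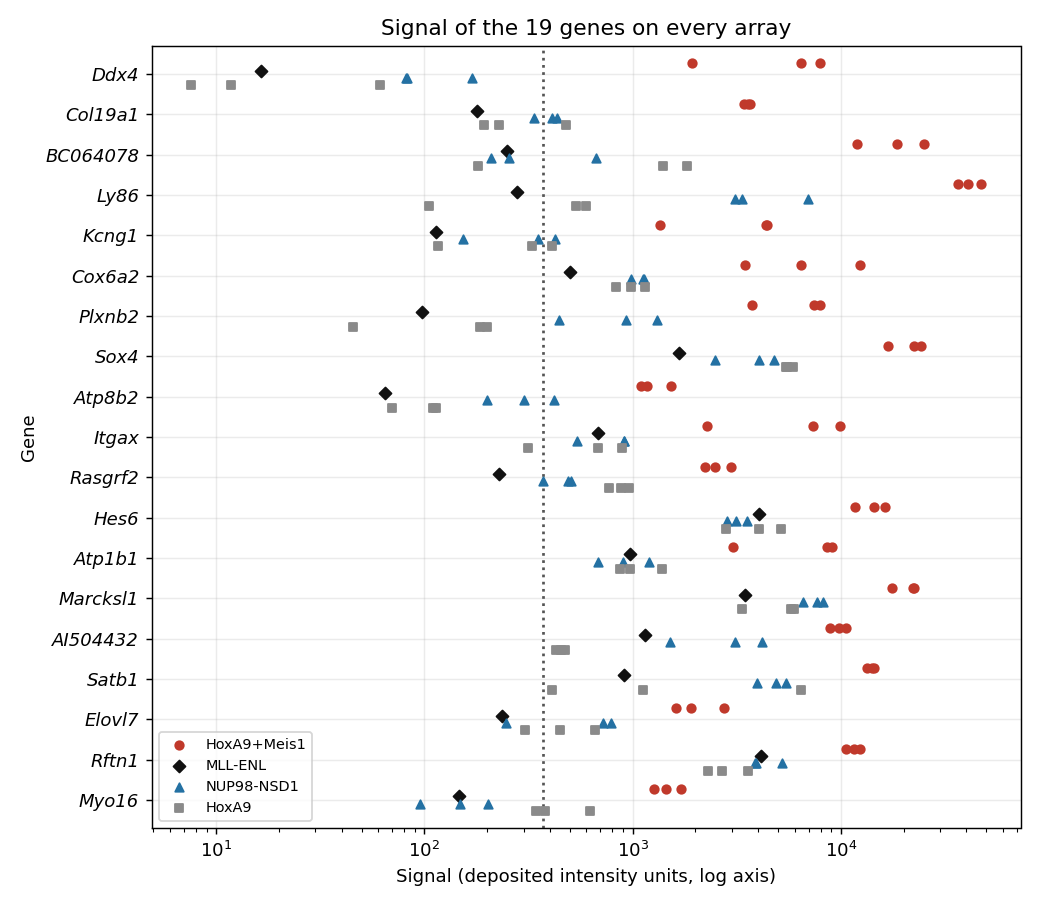
Signal of each gene on each of the 10 arrays, on a log axis in deposited intensity units, with 1 point per array and the filter level of 369 as a dotted line. The 3 HoxA9+Meis1 points lie to the right of all others for every gene, as the rule required. In Ddx4 all 7 other points lie below the filter level, whereas in Sox4, Hes6, Marcksl1 and Rftn1 all 7 lie well above it.

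The label "high only" covers a range of patterns. All 7 other arrays were above the filter level of 369, a signal that 40% of all readings did not exceed, for 8 of the 19 genes, and all 7 were below it for Ddx4 only. The MLL-ENL array was below that level for 10 genes, all NUP98-NSD1 clones for 2 and all HoxA9 clones for 3. The highest reading outside HoxA9+Meis1 came from a NUP98-NSD1 clone for 10 genes, from a HoxA9 clone for 9 and from the MLL-ENL array for 0. In the values that follow, each group of 3 gives clones 1, 2 and 3 in that order.

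The transcription and chromatin regulators among the genes were Sox4, Satb1 and Hes6. Sox4, an HMG-box transcription factor of lymphoid progenitors that is a known partner of Hox oncogenes in mouse leukaemia, gave 22316, 24358 and 16847 in HoxA9+Meis1, 1678 in MLL-ENL, 4056, 4780.2 and 2474 in NUP98-NSD1 and 5487, 5915 and 5471 in HoxA9 cells. It was above the filter level in every culture, with HoxA9+Meis1 clones averaging 3.76 times the HoxA9 mean. Satb1, a chromatin organizer of the T lineage, gave 14342, 14111 and 13412 in HoxA9+Meis1, 905 in MLL-ENL, 4900.4, 5469.6 and 3958 in NUP98-NSD1 and 6404, 412 and 1117 in HoxA9 cells. HoxA9 clones were uneven for Satb1, with clone 1 above every NUP98-NSD1 clone and clones 2 and 3 below all of them in this probe set. A brighter Satb1 probe set gave 20756, 20072.5 and 17146 in HoxA9+Meis1 and 1582 in MLL-ENL cells. It gave 11850, 11194 and 8341 in NUP98-NSD1 and 8051, 628 and 1113 in HoxA9 cells. Its lowest HoxA9+Meis1 signal was 1.45 times the highest signal of the other arrays. Hes6, a Hes-family basic helix-loop-helix protein that opposes Hes1, gave 14427, 16300.0 and 11715 in HoxA9+Meis1, 4063 in MLL-ENL, 3146, 2824 and 3556 in NUP98-NSD1 and 5168, 4035 and 2807 in HoxA9 cells. The range of the HoxA9 clones covered the MLL-ENL and NUP98-NSD1 values for Hes6 in this probe set. In a brighter Hes6 probe set the MLL-ENL array (10648) and NUP98-NSD1 clone 3 (8594) read above every HoxA9 clone (7996, 6366 and 4204). Its lowest HoxA9+Meis1 signal was 1.74 times the MLL-ENL signal.

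Ly86, Itgax, Plxnb2 and Rftn1 encode surface, adhesion and immune proteins. Ly86 (MD-1), the secreted partner of the Toll-like receptor homologue RP105 on B cells and macrophages, gave 47073, 40593 and 36405 in HoxA9+Meis1, 278 in MLL-ENL, 3091, 3334 and 6920.2 in NUP98-NSD1 and 106, 532 and 596 in HoxA9 cells. For Ly86, NUP98-NSD1 clones held an intermediate level between HoxA9+Meis1 and the rest. Itgax (CD11c), an integrin alpha chain of dendritic cells and macrophages, gave 9914, 7384 and 2274 in HoxA9+Meis1, 679 in MLL-ENL, 907, 912 and 539 in NUP98-NSD1 and 313, 885 and 680.3 in HoxA9 cells. HoxA9+Meis1 clone 3 was the low clone for Itgax, and the other groups overlapped. Plxnb2, a plexin receptor for semaphorins, gave 7894, 7450.2 and 3757 in HoxA9+Meis1, 97.7 in MLL-ENL, 443, 933 and 1310.5 in NUP98-NSD1 and 45.6, 185 and 199 in HoxA9 cells. All NUP98-NSD1 clones read above all HoxA9 clones and the MLL-ENL array. Rftn1 (raftlin), a lipid raft protein first described in B cells, gave 12408, 11614 and 10631 in HoxA9+Meis1, 4126 in MLL-ENL, 3928, 5233 and 3879.7 in NUP98-NSD1 and 3596, 2296 and 2698 in HoxA9 cells. Every HoxA9 clone was below every NUP98-NSD1 clone and the MLL-ENL array for Rftn1.

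Atp1b1, Kcng1, Cox6a2, Atp8b2 and Elovl7 encode transporters, a channel subunit and enzymes of membranes and mitochondria. Atp1b1, the beta subunit of the sodium-potassium pump, gave 9096, 8614 and 3038 in HoxA9+Meis1, 966 in MLL-ENL, 899.6, 679 and 1195 in NUP98-NSD1 and 1383, 973 and 866 in HoxA9 cells. Kcng1, a modifying subunit of voltage-gated potassium channels, gave 4353, 4441 and 1359.7 in HoxA9+Meis1, 114 in MLL-ENL, 154, 425 and 351 in NUP98-NSD1 and 327, 116 and 408 in HoxA9 cells. In both genes HoxA9+Meis1 clone 3 read well below clones 1 and 2, and NUP98-NSD1 clones overlapped HoxA9 clones in these probe sets. In another Atp1b1 probe set NUP98-NSD1 clones read at least 653 and HoxA9 clones at most 14.8. There HoxA9+Meis1 clone 3 (784) was below NUP98-NSD1 clone 3 (1835). In a further one NUP98-NSD1 clones read at most 344 and HoxA9 clones at least 560. There HoxA9 clones overlapped HoxA9+Meis1 clones. In the remaining Atp1b1 probe sets NUP98-NSD1 clones overlapped HoxA9 clones. Cox6a2, the heart and muscle form of a cytochrome c oxidase subunit that is also placed here among plasmacytoid dendritic cell genes, gave 12387, 6454 and 3475 in HoxA9+Meis1, 498 in MLL-ENL, 1123, 1139 and 983 in NUP98-NSD1 and 834, 978 and 1143 in HoxA9 cells. Its 3 HoxA9+Meis1 clones were spread widely, and the 3 NUP98-NSD1 and 3 HoxA9 clones lay close together. Atp8b2, a P4-type ATPase that moves phospholipids across membranes, gave 1099, 1531 and 1178 in HoxA9+Meis1, 64.4 in MLL-ENL, 419, 301 and 200.4 in NUP98-NSD1 and 110.0, 70.0 and 113 in HoxA9 cells. Elovl7, an elongase of very long chain fatty acids, gave 1909, 1615 and 2757 in HoxA9+Meis1, 237 in MLL-ENL, 791, 247 and 722 in NUP98-NSD1 and 656, 449 and 303 in HoxA9 cells. Every NUP98-NSD1 clone was above every HoxA9 clone for Atp8b2 in this probe set, and these groups overlapped for Elovl7. A brighter Atp8b2 probe set gave 8549, 8200 and 6698 in HoxA9+Meis1 and 592 in MLL-ENL cells. It gave 5160, 5619 and 1497 in NUP98-NSD1 and 3003, 897 and 1355 in HoxA9 cells, which overlapped. Its lowest HoxA9+Meis1 signal was 1.19 times the highest signal of the other arrays.

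Rasgrf2, Marcksl1, Myo16 and Col19a1 belong to signalling, the cytoskeleton and the matrix. Rasgrf2, an exchange factor for Ras and Rac, gave 2476, 2227 and 2959 in HoxA9+Meis1, 229 in MLL-ENL, 504, 370.1 and 487 in NUP98-NSD1 and 773, 878 and 959 in HoxA9 cells. The 3 other groups did not overlap for Rasgrf2: HoxA9 clones were highest of them, then NUP98-NSD1, then MLL-ENL. Marcksl1, an actin-associated substrate of protein kinase C, gave 17599, 22354 and 22258 in HoxA9+Meis1, 3482 in MLL-ENL, 7709.8, 8244 and 6558 in NUP98-NSD1 and 5779, 3337 and 5943 in HoxA9 cells. All 10 arrays were above the filter level for Marcksl1, with NUP98-NSD1 clones above HoxA9 clones in this probe set. In another Marcksl1 probe set the lowest HoxA9+Meis1 signal was 1.06 times the highest signal of the other arrays. Myo16, an unconventional myosin known from brain, gave 1703, 1269.7 and 1439 in HoxA9+Meis1, 146 in MLL-ENL, 95.2, 148 and 203 in NUP98-NSD1 and 625, 344 and 379 in HoxA9 cells. Col19a1, a chain of collagen XIX, gave 3667, 3577 and 3426 in HoxA9+Meis1, 179.6 in MLL-ENL, 435, 335 and 411 in NUP98-NSD1 and 228, 478 and 194 in HoxA9 cells. The HoxA9+Meis1 clones agreed closely for Col19a1, and NUP98-NSD1 clones overlapped HoxA9 clones near the filter level.

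The remaining genes were a germline gene and the 2 noncoding RNAs. Ddx4 (Vasa), an RNA helicase used as a marker of germ cells, gave 1919, 6429 and 7956 in HoxA9+Meis1, 16.5 in MLL-ENL, 169.7, 82.4 and 82 in NUP98-NSD1 and 11.8, 7.6 and 61 in HoxA9 cells. With the other arrays set at the filter level, HoxA9+Meis1 clones averaged at least 14.7-fold higher, and this bound is no measure of how far below that level they were. BC064078, listed by RefSeq as a long noncoding RNA, gave 25108, 18562 and 11992 in HoxA9+Meis1, 250.5 in MLL-ENL, 208, 665 and 255 in NUP98-NSD1 and 1404, 182 and 1815 in HoxA9 cells. HoxA9 clones 1 and 3 carried a low level that clone 2 did not. AI504432, the other RNA so listed, gave 8891, 10556 and 9791 in HoxA9+Meis1, 1149 in MLL-ENL, 4168, 3108 and 1519.8 in NUP98-NSD1 and 473, 427 and 454 in HoxA9 cells. Its level followed the order HoxA9+Meis1, NUP98-NSD1, MLL-ENL and HoxA9, with the MLL-ENL array below every NUP98-NSD1 clone and above every HoxA9 clone.

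Among the HoxA9+Meis1 clones the genes varied more than most. The coefficient of variation over the 3 clones had a median of 18.1% for the 19 genes, with a range of 3.41% (Col19a1) to 61.0% (Cox6a2). Over 16015 kept probe sets with at least 1000 on all 3 arrays the median was 9.14%. Clone 3 was the lowest of the 3 for 12 of the 19 genes, clone 1 for 4 and clone 2 for 3, whereas over the 16015 probe sets the shares were 33.5%, 32.01% and 34.4%. Relative to the mean of the 3, clone 3 was lowest in Itgax, Kcng1, Atp1b1 and Cox6a2. Ddx4 went the other way, with clone 1 the lowest and clone 3 the highest. These shares are descriptions, since the rule read the lowest clone.

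**Figure D2:**
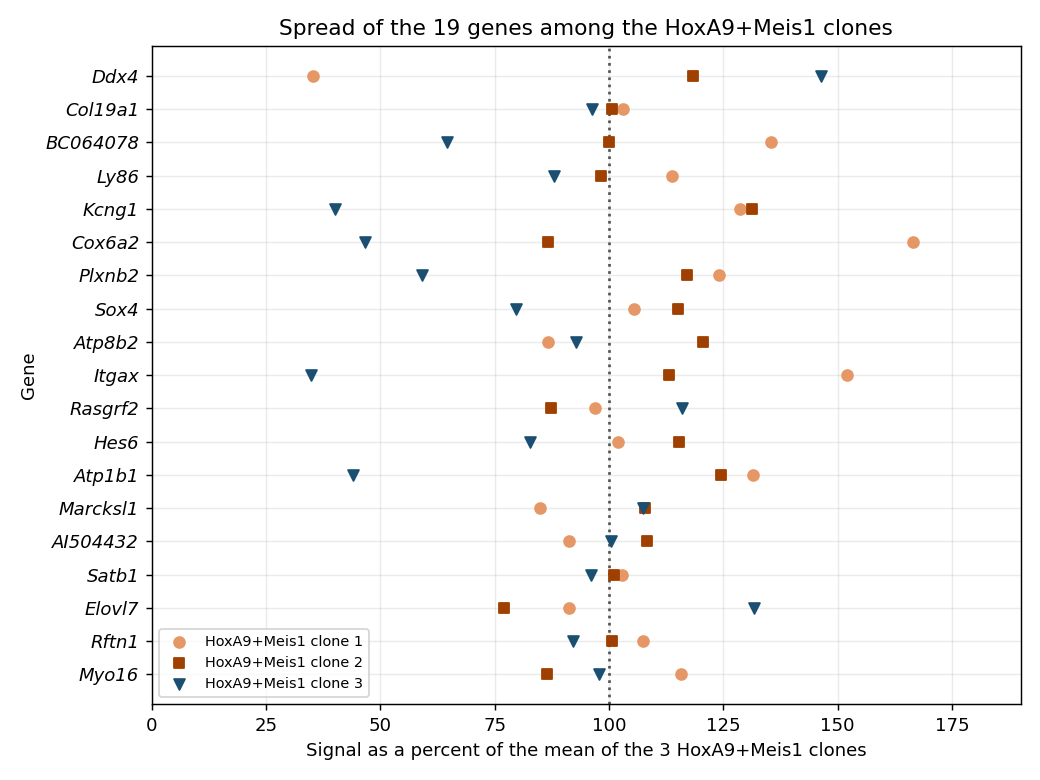
Signal of each gene in HoxA9+Meis1 clones 1, 2 and 3 as a percent of the mean of the 3 (dotted line at 100). Clone 3 is the lowest point for 12 of the 19 genes, and the points of Col19a1, Satb1, Rftn1 and AI504432 lie close together.

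Leaving an array out of the rule showed how far clone 3 set its reach. Without clone 3 of HoxA9+Meis1 the rule gave 68 genes in place of 19, against 23 without clone 1 and 28 without clone 2. Without clone 3, 49 genes were added, and 8 of them are in the lists of cell type and regulator genes, chosen after their values were seen: Rag1, Rag2, Vpreb1, Cd79b, Siglech, Tcf4, Bcl2 and Ccnd1. Vpreb1, part of the surrogate light chain of the pre-B cell receptor, gave 3731, 2893 and 317 in HoxA9+Meis1, 25.2 in MLL-ENL, 196, 52.9 and 67.4 in NUP98-NSD1 and 372, 98.1 and 95.3 in HoxA9 cells. Rag2, a subunit of the recombinase of lymphocyte receptor genes, gave 1222, 1682 and 315 in HoxA9+Meis1, 36.9 in MLL-ENL, 101, 92.2 and 28 in NUP98-NSD1 and 49.9, 149.7 and 92.6 in HoxA9 cells. Cd79b, a signalling chain of the B cell receptor, gave 6294, 3311 and 305 in HoxA9+Meis1, 852 in MLL-ENL, 609, 727 and 527 in NUP98-NSD1 and 1266, 150.1 and 219 in HoxA9 cells. Clones 1 and 2 of HoxA9+Meis1 were above all other arrays for these genes, and clone 3 was within the range of the other groups for Vpreb1 and Cd79b and above it for Rag2. Siglech, a receptor of plasmacytoid dendritic cells, gave 2207, 2389 and 569 in HoxA9+Meis1, 245 in MLL-ENL, 468, 129 and 55 in NUP98-NSD1 and 347, 613 and 655 in HoxA9 cells, with clone 3 again within the range of the other groups. These genes were named because leaving out clone 3 added them, so a low clone 3 follows from the choice. Over all 15 B lymphoid genes tested, clone 3 was the lowest HoxA9+Meis1 clone for 9, clone 1 for 5 and clone 2 for 1, and Pax5, Bank1 and Ms4a1 read highest in clone 3. The list holds 20 genes, of which 3 did not pass the filter, Rag1 and Rag2 among them, and Il7r was left out by the rule. Rag1, Rag2 and Il7r were lowest in clone 3, Rag1 with 1092, 1642 and 194 and Il7r with 7093, 5883 and 1326 in its brighter probe set. Leaving out the MLL-ENL array gave 30 genes, 11 of them new, among them Mef2c.

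The thresholds fell in a continuous range of values. Just inside the ratio of 2 were Myo16 (2.03), Rftn1 (2.03) and Elovl7 (2.04), and just outside it Atp13a2 (1.96), Zfp36 (1.84) and Matk (1.83). Just above the floor of 1000 were Atp8b2 (1099), Myo16 (1269.7) and Kcng1 (1359.7), by their lowest HoxA9+Meis1 signal, and just below it Ppfia4 (989), Adgra2 (851) and Itgb3 (639.8).

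Of the 19 genes, 13 have 34 further probe sets, of which 28 were above the filter level in at least 3 arrays. In 19 of the 34, all HoxA9+Meis1 arrays were above all other arrays, against 4.54% of all 34945 probe sets with 1 gene symbol. The rule used this contrast, so the count is a description. For Col19a1, BC064078 and Elovl7 a further probe set met both thresholds. The one of Col19a1 gave 3581, 3849.9 and 3611 in HoxA9+Meis1, 211 in MLL-ENL, 55.7, 375 and 253 in NUP98-NSD1 and 34.9, 152 and 24.8 in HoxA9 cells. For Sox4 the brightest probe set gave 69322, 72304 and 61385 in HoxA9+Meis1, 14146 in MLL-ENL, 51038, 47204 and 19188 in NUP98-NSD1 and 29931, 34772 and 34061 in HoxA9 cells, with the lowest HoxA9+Meis1 clone at 1.20 times the highest NUP98-NSD1 clone. In another Sox4 probe set the HoxA9+Meis1 clones overlapped NUP98-NSD1 clones, with 5496, 6897 and 4392 against 7680.0, 6483 and 2853. Which transcript forms these probe sets read was not tested.

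**Figure D3:**
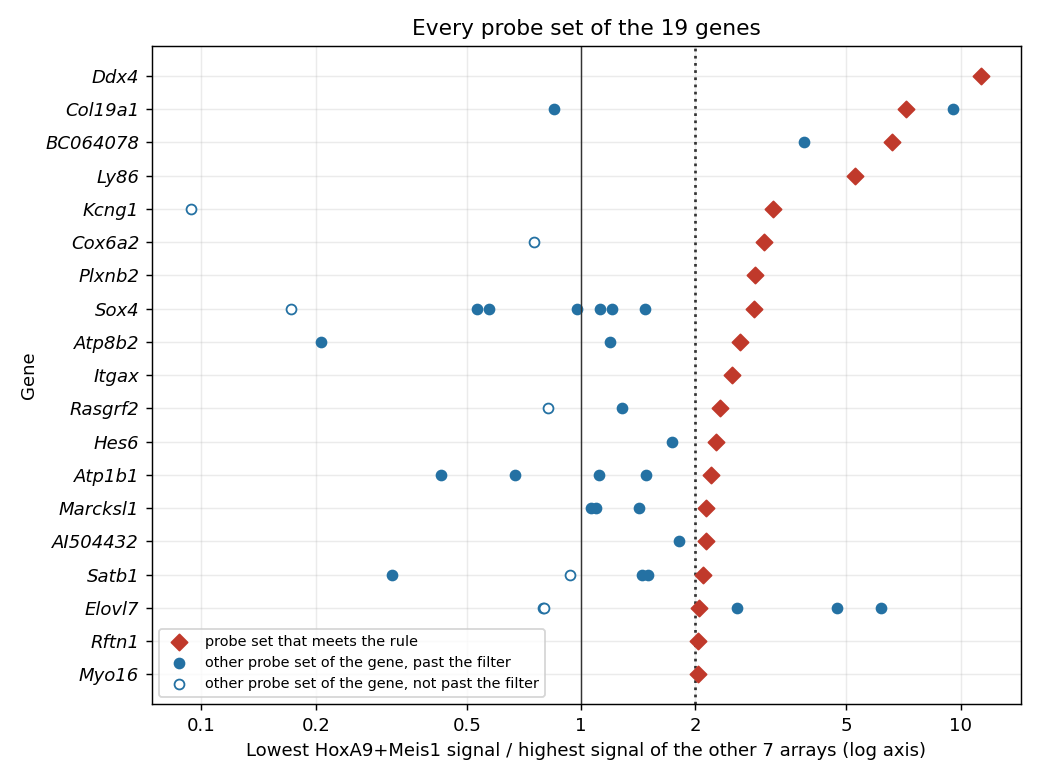
Lowest HoxA9+Meis1 signal divided by the highest signal of the other 7 arrays, on a log axis, for every probe set of the 19 genes. Diamonds are the probe sets that meet the rule, right of the dotted line at 2; filled circles are other probe sets past the filter and open circles those not past it. The circles of Sox4, Satb1, Atp1b1 and Atp8b2, among others, lie on both sides of 1.

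The rule did not use the differences among the other groups except through a common ceiling, so these were tested with limma over all 30945 kept probe sets, with Benjamini-Hochberg adjustment and a threshold of 0.05. Between NUP98-NSD1 and HoxA9 clones, 6 of the 19 genes were higher and 2 lower (12.3% and 16.7% of all probe sets), and 11 did not pass. Ddx4, Kcng1, Atp8b2 and Myo16 passed the filter only through their HoxA9+Meis1 arrays, which the rule selected. Their results are therefore descriptions, here and in the comparisons with MLL-ENL, and the counts include them. The median log2 difference was 0.39, against -0.14 over all probe sets. Ly86 averaged 4449 ± 2144 in NUP98-NSD1 and 411 ± 266 in HoxA9 clones (SD, n = 3 each), a limma log2 difference of 3.52 (SE 0.506, adjusted p = 8.07e-04). AI504432 averaged 2932 ± 1333 and 451 ± 23.3 in NUP98-NSD1 and HoxA9 clones (SD, n = 3 each), a limma log2 difference of 2.50 (SE 0.296, adjusted p = 2.71e-04). Plxnb2 was higher as well, by at least 2.42-fold with HoxA9 clones set at the filter level (limma log2 difference 2.43, SE 0.514, adjusted p = 0.00618). For these 3 genes the groups did not overlap, and the call held in all 20 alternatives.

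Rftn1 (log2 difference 0.61, limma adjusted p = 0.0257) and Marcksl1 (0.62, 0.0453) also rose in NUP98-NSD1 clones. In another Marcksl1 probe set NUP98-NSD1 clones (4401, 3867 and 2366) overlapped HoxA9 clones (4338, 2957 and 3639). In a brighter one they did not (15074, 15624 and 12334 against 6279, 1908 and 3442). Atp8b2 passed the threshold as well (limma adjusted p = 0.0335), but NUP98-NSD1 clone 1 alone of these 6 clones was above the filter level, so no size is given. In the brighter Atp8b2 probe set the NUP98-NSD1 and HoxA9 clones overlapped. The calls of Rftn1, Marcksl1 and Atp8b2 were lost in 5, 11 and 11 of the 20 alternatives. Rasgrf2 fell by 0.90 (SE 0.232, limma adjusted p = 0.0158) on the log2 scale in NUP98-NSD1 clones. Myo16 fell by 1.41 (SE 0.376, limma adjusted p = 0.0181) and was at least 1.22-fold lower by the filter level. The Rasgrf2 call was lost in 4 and the Myo16 call in 3 of the 20 alternatives. Sox4 missed the threshold at -0.62 (limma adjusted p = 0.0543) in the probe set that met the rule, whereas in its brightest probe set NUP98-NSD1 clones 1 and 2 read above all HoxA9 clones. The number of higher genes was 3 without HoxA9 clone 2 and 3 without NUP98-NSD1 clone 2, and the number of lower genes was 1 without HoxA9 clone 1 or clone 3. With only the groups compared in the fit, 3 were higher and 0 lower, and with arrays shifted to a common median 0 were lower.

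**Figure D4:**
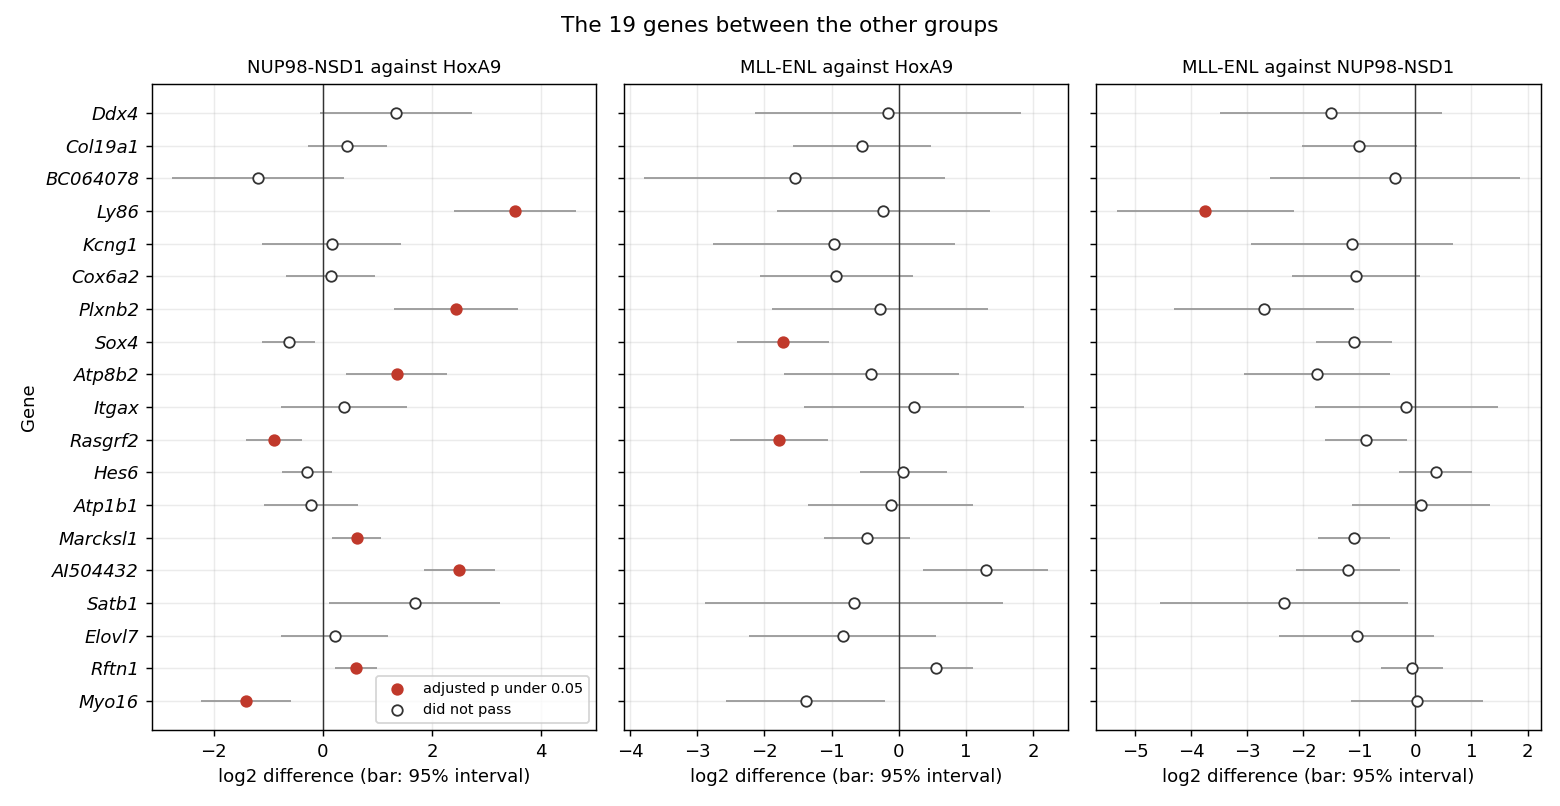
Limma log2 differences of the 19 genes, with 95% intervals, between NUP98-NSD1 and HoxA9 clones, between the MLL-ENL array and HoxA9 clones, and between the MLL-ENL array and NUP98-NSD1 clones, each as the first minus the second; filled points passed an adjusted p of 0.05. Ly86, Plxnb2 and AI504432 stand furthest to the right in the first panel, and Ly86 and Plxnb2 furthest to the left in the third.

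The single MLL-ENL array was compared on the assumption that it varies like the clones. It shares the HoxA9 arrays with the comparison above. Against HoxA9 clones, 0 of the 19 genes were higher and 2 were lower (5.01% and 9.46% of all probe sets). In limma 4 of the 19 had an unadjusted p under 0.05, 1 of them higher, and the share over all probe sets is not given here. Sox4 fell by 1.72 (SE 0.309, limma adjusted p = 0.00589) and Rasgrf2 fell by 1.78 (SE 0.328, limma adjusted p = 0.00661) on the log2 scale, Rasgrf2 being at least 2.36-fold lower. Both calls held in all 18 alternatives, none of which varies the MLL-ENL array, and the SE and p take their spread from the clones of the other groups. AI504432 did not pass (1.29, limma adjusted p = 0.0646), but 1 gene was higher with quantile normalization and 2 with a common median; 1 was higher without NUP98-NSD1 clone 1 or clone 3. Without HoxA9 clone 2, 4 genes were lower.

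MLL-ENL against NUP98-NSD1 stays within 1 set of arrays as judged by the hybridization controls alone. Of the 19 genes, 0 were higher and 1 was lower (1.18% and 2.8% of all probe sets). Ly86 fell by 3.75 on the log2 scale (SE 0.716, limma adjusted p = 0.0188), and was at least 12.05-fold lower with the MLL-ENL array at the filter level. This call was lost without the intensity trend. The median log2 difference of the 19 genes was -1.07, against -0.07 over all probe sets, and 8 genes had an unadjusted p under 0.05 (18.7% of all probe sets), 0 of them higher. Plxnb2 (-2.71, limma adjusted p = 0.0679), Marcksl1 (-1.09, 0.0664) and Sox4 (-1.10, 0.0790) missed the threshold. The number of lower genes was 3 without HoxA9 clone 1, 2 without HoxA9 clone 2 and 4 without NUP98-NSD1 clone 3.

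Lists of marker and regulator genes were set beside the 19 genes, with the list genes that are no members tested for HoxA9+Meis1 against HoxA9. Over 168 list genes tested, 21 were higher and 9 lower, against 4.18% and 4.48% of 14233 genes, and 13 were higher without the intensity trend. Of 15 B lymphoid genes tested, 0 passed in limma in either direction, and Rag1 and Rag2 were not among the 15. In limma 4 of the 15 had an unadjusted p under 0.05. The share of all genes under that p is not given here, so this count and those of other lists below are descriptions. The median log2 difference of the 15 genes was 0.31 against -0.02 over all genes. Their summed signal was 8872 to 22446 in HoxA9+Meis1 clones and 9560.0 to 11259.7 in HoxA9 clones. Vpreb1 did not pass (3.05, limma adjusted p = 0.0705). Outside HoxA9+Meis1 only HoxA9 clone 1, at 372, was above the filter level for Vpreb1. It thus passed the filter through HoxA9+Meis1 clones 1 and 2, and its result is a description. Of 13 dendritic cell genes, the list that also holds Itgax and Cox6a2, 2 were higher. Tcf4, a transcription factor of plasmacytoid dendritic cells, rose by 1.59 (SE 0.278, limma adjusted p = 0.00677), and Ptpre by 0.56 (limma adjusted p = 0.0399). The Ptpre call was lost in 9 of 20 alternatives. Of 12 monocyte and macrophage genes, a list with Ly86 in it, 2 were higher. Cd68, a lysosomal glycoprotein of macrophages, rose by 1.73 (SE 0.212, limma adjusted p = 9.19e-04), and Cx3cr1, the fractalkine receptor, by 2.23 (SE 0.476, limma adjusted p = 0.0183). The Cx3cr1 call was lost in 5 of 20 alternatives.

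Of 9 MHC class II genes and chaperones, 2 were higher: Ctss, the protease that trims the invariant chain (4.55, SE 0.320, limma adjusted p = 2.99e-05), and H2-Oa (1.38, SE 0.238, limma adjusted p = 0.00644). Ctss averaged 18350 in HoxA9+Meis1 and 18002 in NUP98-NSD1 clones, whereas H2-Oa averaged 3418 and 1734 in them. Of 14 stem and progenitor genes, the list that also holds Satb1, 6 were higher and 0 lower. Of 19 genes linked to HoxA9 and Meis1 in leukaemia, the list that also holds Sox4, 6 were higher and 0 lower. Cd34 and Erg are in both lists. Cd34, a surface sialomucin of progenitors, averaged 49234 ± 1350.2 in HoxA9+Meis1 clones and 679 ± 1009.8 in HoxA9 clones (SD, n = 3 each), and Erg, an Ets factor of stem cells, averaged 6316 ± 819 and 11.0 ± 2.47 in them. Cd34 was also high in NUP98-NSD1 clones, with a mean of 24618, and read 2723 in MLL-ENL cells. Of 8 T and NK cell genes 0 passed in limma, with 1 at an unadjusted p under 0.05. Of 11 primary granule genes, 4 were lower and 1 higher: Elane, neutrophil elastase, fell by 2.64 (SE 0.184, limma adjusted p = 2.84e-05) and Ms4a3, a gene of granulocyte-monocyte progenitors, fell by 2.75 (SE 0.152, limma adjusted p = 1.01e-05). Of 14 secondary granule and neutrophil genes, 3 were higher and 0 lower, among them the collagenase gene Mmp8 (3.00, SE 0.452, limma adjusted p = 0.00311). Mmp8 averaged 5461 in HoxA9+Meis1 and 10151.5 in NUP98-NSD1 clones. Of 23 cytokine and chemokine receptor genes 2 were higher and 3 lower, of 13 interferon response genes 0 were higher and 2 lower, and of 11 stromal and endothelial genes 1 was higher and 0 lower. Of 12 mast cell, basophil and eosinophil genes and 10 erythroid and megakaryocyte genes 0 passed in limma, with 2 and 1 at an unadjusted p under 0.05. Against NUP98-NSD1, 29 list genes were higher and 50 lower (18.5% and 14.2% of all genes), the lower ones including 10 of the 11 primary granule, 10 of the 14 secondary granule and 7 of the 12 mast cell genes, and against MLL-ENL 25 were higher and 20 lower (12.3% and 9.17%). Without HoxA9+Meis1 clone 1 or clone 2, the higher counts were 19 and 18 against NUP98-NSD1 and 15 and 12 against MLL-ENL.

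By the RefSeq annotation (GRCm38.p6), 5 of the 19 genes (26.3%) lie on chromosome 13, Ddx4, Ly86, Sox4, Rasgrf2 and Elovl7, against 3.78% of 14135 measured genes. Chromosome 13 was singled out after the data were seen and no other chromosome was counted, so this share is a description. The nearest measured gene on either side of each of the 19 gave 37 neighbours, since Cox6a2 and Itgax on chromosome 7 share 4931431B13Rik, and these were tested for HoxA9+Meis1 against HoxA9 after the data were seen. Of them 4 (10.8%) were higher and 0 lower, against 4.18% and 4.48% of all genes, and the number higher was 2 to 6 with a clone left out. Depdc1b, next to Elovl7, gave 6365, 7011 and 7382 in HoxA9+Meis1, 4363 in MLL-ENL, 5973, 5841 and 6602 in NUP98-NSD1 and 3159, 2683 and 3545 in HoxA9 cells (limma log2 difference 1.14, adjusted p = 5.15e-04). Klrb1f, next to BC064078, gave 2456, 1902 and 1487 in HoxA9+Meis1, 853 in MLL-ENL, 1781, 1564 and 1580.2 in NUP98-NSD1 and 587, 658 and 809 in HoxA9 cells (1.45, limma adjusted p = 0.00370). Il6st, the shared receptor chain of interleukin-6 family cytokines and the neighbour of Ddx4, was higher by 1.26 (limma adjusted p = 0.0182), and Kcna3, next to AI504432, by 2.07 (limma adjusted p = 0.0349). For all 4 of these neighbours, NUP98-NSD1 clones overlapped HoxA9+Meis1 clones, which the rule did not allow for the genes beside them. For Il6st the MLL-ENL array, at 13794, also read above HoxA9+Meis1 clones 1 and 3, at 10372 and 6719. The number of higher neighbours was 2 without HoxA9 clone 2, 2 without HoxA9+Meis1 clone 1 and 2 without the intensity trend.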

How the data were processed

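The authors deposited a linear intensity for each of 45101 probe sets on each array (0 value columns without a sample). The software that made the values is not given in the sources used here. After removal of the lowest and highest 2% the mean was 2500.01 to 2500.02 on every array, so the values were used as deposited. Symbols came from the platform annotation: 34945 probe sets had 1 symbol, 932 several and 9160 none, besides 64 controls.

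Values were analysed as log2(signal + 32), which understates the change of dim genes. Probe sets above the 40th percentile (369.318) on at least 3 of 10 arrays were kept (30945). Comparisons used limma 3.58.1 under R 4.3.3 (4 group means, eBayes with intensity trend), two-sided, with Benjamini-Hochberg adjusted p under 0.05 over all kept probe sets. A list gene or neighbour was read from its kept probe set with the highest mean. In a fold of at least a value, a group with no array above 369.318 stands at that signal. The number of arrays limits the precision, and p-values measure only the spread between these cultures, which may be technical. Figures used Python 3.11.15 and matplotlib 3.10.9.

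The members, lists and tests were chosen with earlier results of these data known. All 19 members are named, with up to 3 called genes per list, the 3 genes on each side of a threshold, and genes said to be chosen after their values were seen. The fit was tested on simulated data. Alternatives were quantile normalization, a common median, offsets of 1 and 100, other filters, other variance models, 1 probe set per gene, fits of the compared groups alone, the clone number as a replicate block, other thresholds of the rule, and leaving out each clone.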

Additional observations from a re-analysis of the deposited data

How the results depend on the processing

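Array number, dim signal and array sets that follow the oncogene limit these results: 10 of the 19 genes were below the filter level in MLL-ENL cells, where a difference is only a bound. The number of genes that meet the rule was 69 at a ratio of 1.5, 7 at a ratio of 3, 30 without the MLL-ENL array and 19 to 68 with a clone left out. Between NUP98-NSD1 and HoxA9, higher genes numbered 3 with only the groups compared and 3 to 6 with a clone left out, against 6. Lower genes numbered 0 with a common median, 0 with only the groups compared and 1 to 3 with a clone left out, against 2. The 6 higher genes include Atp8b2 and the 2 lower genes include Myo16, whose results are descriptions. Between MLL-ENL and HoxA9, higher genes numbered 1 with quantile normalization, 2 with a common median and 0 to 1 with a clone left out, against 0, and lower genes 2 to 4, against 2. Between MLL-ENL and NUP98-NSD1, lower genes numbered 0 without the intensity trend and 1 to 4 with a clone left out, against 1. List genes higher in HoxA9+Meis1 than in HoxA9 numbered 13 without the intensity trend and 14 to 28 with a clone left out, against 21, and lower ones 14 with quantile normalization and 7 to 12 with a clone left out, against 9. Higher list genes numbered 18 to 29 against NUP98-NSD1 with a clone left out, and against MLL-ENL 16 with quantile normalization and 12 to 36 with a clone left out. Neighbours numbered 2 higher without the intensity trend and 2 to 6 with a clone left out, against 4, and 1 lower with quantile normalization and 0 to 1 with a clone left out, against 0. The cause of these shifts was not tested.

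With the clone number as a replicate block, 4 genes were higher and 3 lower in NUP98-NSD1 than in HoxA9, and list genes higher and lower in HoxA9+Meis1 than in HoxA9 numbered 22 and 10. Deviations of same-numbered clones from their group means correlated at -0.064 to 0.043, so they did not deviate together. This cannot exclude that same-numbered clones share an origin, which the labels do not give.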

Other observations

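A further 7 probe sets with no gene listed in the annotation used here met both thresholds of the rule, and were left out of the 19 genes. One of them gave 5858, 5587 and 3679 in HoxA9+Meis1, 20.9 in MLL-ENL, 111, 22.7 and 19.3 in NUP98-NSD1 and 62.9, 52.9 and 49 in HoxA9 cells. A second gave 3602, 4196 and 2741 in HoxA9+Meis1 clones. In both probe sets all 7 other arrays were below the filter level.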
